A study of Mus musculus with 10 samples.

Results

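Expression of 8 genes of the Hedgehog receptor complex and its Gli output was followed in mouse muscle stem cells that were freshly isolated or cultured with or without Tubastatin A. The genes were chosen by name, as the receptor Ptch1, the signal transducer Smo, the co-receptors Gas1, Boc and Cdon, the transcription factors Gli2 and Gli3 and their inhibitor Sufu, and all 8 were among the 12803 genes of the deposited table. Per the labels, each library came from 1 animal, a male C57BL/6 mouse, and the sort kept VCAM+ cells that were CD45-, CD31- and Sca1-. There were 3 groups. The Tubastatin A group (n = 4) was cultured for 24 h with 40 µM of the compound dissolved in DMSO. The vehicle group (n = 3) was cultured for 24 h with the same volume of DMSO, and both cultures were in Ham's F-10 medium with 10% horse serum. The fresh group (n = 3) was frozen after the sort, at 0 h, and its labels also carry the word vehicle although the cells were not cultured. The labels name no engineered allele. Tubastatin A inhibits the deacetylase HDAC6, which removes acetyl groups from tubulin and other proteins.

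Hedgehog proteins are secreted ligands. Without ligand, Ptch1 keeps Smo out of the primary cilium, protein kinase A marks Gli3 and Gli2 for partial proteolysis, and the truncated Gli3 represses target genes. When ligand binds Ptch1 together with Gas1, Boc or Cdon, Smo enters the cilium, Sufu releases the full-length Gli proteins and Gli2 acts as the main activator, with Gli1 and Ptch1 itself among the targets. Quiescent muscle stem cells carry a primary cilium, which is resorbed when cells enter the cycle. Boc and Cdon also act in myoblasts outside Hedgehog signalling, at cell contacts made by cadherins, and Gas1 was first described as a transcript of growth-arrested fibroblasts.

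Reads in the table came to between 37.5M and 55.3M per library, and the members were counted with at least 141 and at most 108370 reads in any library. Levels are given as RPKM (reads per kilobase of exon, relative to library size), and changes as differences in log2(RPKM + 1) fitted with limma, with adjusted p (Benjamini-Hochberg) over all genes and a threshold of 0.05. The pseudocount of 1 RPKM understates changes of genes at low levels. The library sizes behind the deposited RPKM were scaled by the authors: reads in the table made up 0.829 to 0.928 times the scaled size in cultured libraries and 1.39 to 1.41 times in fresh ones. With sizes taken as the reads in the table alone, the ratio of scales moved on the log2 scale by 0.08 between the 2 cultures, by 0.61 for vehicle over fresh and by 0.69 for Tubastatin A over fresh. The median fitted change over all genes was then 0.06 between the cultures (0.02 with the deposited scaling), 0.34 for vehicle over fresh (−0.03) and 0.40 for Tubastatin A over fresh (−0.03). The split of vehicle against fresh then became 6365 genes higher and 2905 lower, against 4096 and 4484 with the deposited scaling, and that of Tubastatin A against fresh became 6916 and 2590, against 3811 and 4503. Each comparison with fresh cells below is therefore relative to the authors' scaling, and members whose call or direction depends on it are named. In bulk RNA, fewer cells of a type and less RNA per cell cannot be told apart.

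Markers of muscle stem cells, 10 of 10 measured, summed to 901 to 1009 RPKM in Tubastatin A libraries, 1776 to 2099 RPKM in vehicle libraries and 2631 to 3747 RPKM in fresh libraries. Pax7, the lineage factor of these cells, was detected in every library. Myod1 had the largest mean of the list in both cultures, at 539 RPKM with Tubastatin A and 1186 RPKM with vehicle. In fresh cells Sdc4 (1143 RPKM) and Myod1 (757 RPKM) had the largest means. Markers of fibro-adipogenic progenitors, which are muscle fibroblasts known to express Hedgehog pathway genes, summed to 88.6 to 121.1 RPKM with Tubastatin A, 93.9 to 113.2 RPKM with vehicle and 1682 to 2150 RPKM in fresh cells. Most of the fresh sum was Gsn (1288 to 1423 RPKM), an actin-severing protein, while the defining marker Pdgfra stood at 0.218, 0.00676 and 0.125 RPKM in fresh libraries 1, 2 and 3. Endothelial markers summed to 0.789 to 1.48 RPKM with Tubastatin A, 0.535 to 1.70 RPKM with vehicle and 16.2 to 26.2 RPKM in fresh cells. Immune markers, 3 of 6 measured, summed to 2.53 to 4.03 RPKM with Tubastatin A and 0.731 to 0.946 RPKM with vehicle. In fresh cells the immune markers summed to 10.2 to 21.6 RPKM. Of these, Cd68 stood at 2.37 to 3.80 RPKM with Tubastatin A and 1.34 to 3.04 RPKM in fresh cells, while Lyz2 and Cd74 were highest in fresh cells. Between the cultures 1 of 6 pericyte and smooth muscle markers was lower, Acta2 (10.3 to 60.8 RPKM with Tubastatin A and 174 to 239 RPKM with vehicle), and 1 was higher, Pdgfrb (0.468 to 0.799 RPKM with Tubastatin A and 0.0190 to 0.132 RPKM with vehicle). Of 5 tenocyte markers 1 was lower, Scx (1.85 to 8.71 RPKM with Tubastatin A and 65.7 to 75.6 RPKM with vehicle), and 1 was higher, Mkx (2.65 to 2.98 RPKM with Tubastatin A and 0.463 to 0.787 RPKM with vehicle). Myh11, a marker of smooth muscle, was at 0 reads in vehicle libraries 1 and 2. Myofibre markers summed to 382 RPKM in Tubastatin A library 2 and to 5.00 to 6.01 RPKM in the other libraries of that group, but this library lay inside the range of its group for 8 of 8 members. Among the fresh libraries, library 1 was highest for 8 of 8 members and library 2 was lowest for 7 of 8. Over all genes library 1 was highest for 38.2%, and library 2 was lowest for 5186 of 12803 genes. The ratio of fresh library 1 to fresh library 2 was between 1.12 (Gli3) and 3.76 (Gli2) for the members, against a median of 1.03 over all genes. Pax7 followed the same order, at 33.2, 15.3 and 18.8 RPKM in fresh libraries 1, 2 and 3. Myod1, which drives commitment, ran the reverse, at 272, 1071 and 928 RPKM. Of the other markers of muscle stem cells, Calcr, Itga7 and Cdh15 ran in the order of Pax7 and Sdc4 in that of Myod1. Myf5, Vcam1, Des and Cxcr4 ran in neither order. The part of these differences between animals in the members' levels was not tested.

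Of the 8 members, 5 changed between Tubastatin A and vehicle cultures, where 59.3% of all genes did. Boc was higher with Tubastatin A (29.6% of all genes were), and Gas1, Cdon, Smo and Gli3 were lower (29.7% of all genes). Between vehicle cultures and fresh cells 6 members changed, against 67% of all genes, with Smo and Gli3 higher in culture (32% of all genes) and Gas1, Boc, Cdon and Gli2 lower (35%). Between Tubastatin A cultures and fresh cells 5 changed, against 64.9% of all genes, with Sufu higher (29.8% of all genes) and Gas1, Boc, Cdon and Gli2 lower (35.2%). The libraries did not overlap between Tubastatin A and vehicle for 5 members (68.6% of all genes), between vehicle and fresh for 6 (67.6%) and between Tubastatin A and fresh for 4 (61.3%). The shares called in either direction and the shares without overlap are near those of the whole table. The share of members lower, 4 of 8 in each comparison, was above that of all genes and was not tested as a set. What follows concerns the single genes and not the set. The median change of the members was −0.38 between the cultures (0.02 over all genes), −0.45 for vehicle over fresh (−0.03 over all genes) and −0.76 for Tubastatin A over fresh (−0.03 over all genes). With reads alone the median of the members was −0.32 between the cultures, 0.010 for vehicle over fresh and −0.25 for Tubastatin A over fresh. The number of members called was then 5 between the cultures, 7 between vehicle and fresh and 7 between Tubastatin A and fresh. The 3 comparisons share libraries, so their calls do not count as separate evidence.

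**Figure D1:**
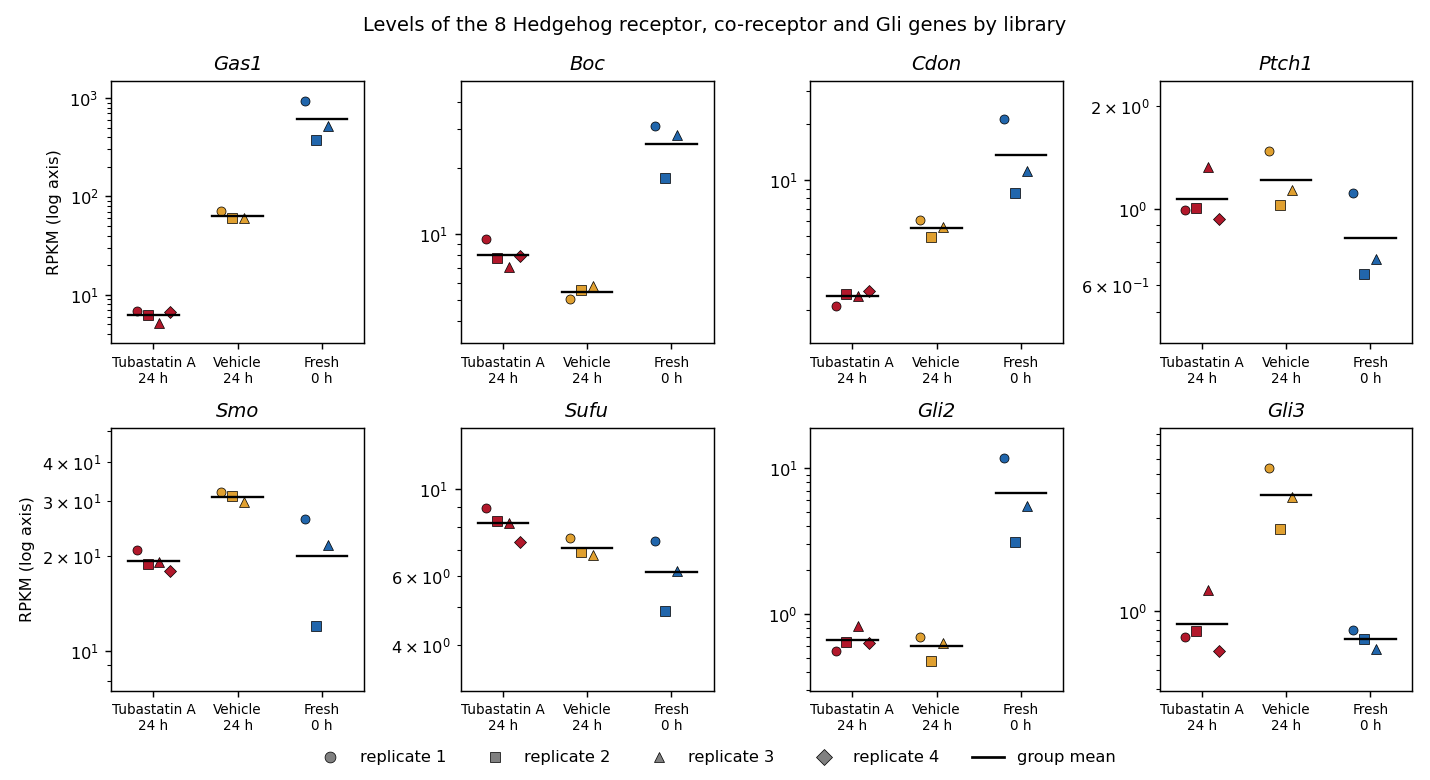
RPKM of the 8 members in each library, on log axes, with Tubastatin A libraries left of vehicle and fresh ones; points are libraries and short lines are group means. Gas1 forms 3 separate steps, Gli2 is high in fresh libraries alone, and Gli3 is high in vehicle libraries alone.

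Gas1, a membrane-anchored co-receptor that binds ligand, had the largest change of the members on the log2(RPKM + 1) scale in each comparison. Its level was 6.88, 6.28, 5.12 and 6.71 RPKM in Tubastatin A libraries 1 to 4, 70.4, 60.2 and 60.5 RPKM in vehicle libraries 1 to 3, and 931, 375 and 523 RPKM in fresh libraries 1 to 3. The 3 groups did not overlap: every Tubastatin A library was below every vehicle library, and every vehicle library below every fresh one. The means were 6.25 ± 0.789 RPKM with Tubastatin A (SD, n = 4), 63.7 ± 5.77 RPKM with vehicle and 609.5 ± 287.8 RPKM in fresh cells (SD, n = 3 each). The Tubastatin A mean was 10.2-fold lower than the vehicle mean (log2 change −3.16, SE 0.24, limma adjusted p = 5.5e-07). The vehicle mean was 9.57-fold lower than the fresh mean (−3.14, SE 0.26, adjusted p = 5.3e-07). Between Tubastatin A and fresh the means differed 97.5-fold (−6.30, SE 0.24, adjusted p = 1.4e-09). Ranked among all 12803 genes by change, Gas1 was the 10th lowest between Tubastatin A and fresh, the 79th lowest between Tubastatin A and vehicle and the 314th lowest between vehicle and fresh. Its call and direction held in each of the 19 alternative settings and in all 3 comparisons. With vehicle, 8 of 10 markers of muscle stem cells and 6 of 6 of endothelium were lower than in fresh cells, as were 35% of all genes. With Tubastatin A, 8 of the 10 were lower than with vehicle (29.7% of all genes) and 1 was higher (29.6%). The 6 of endothelium did not pass between the cultures. Gsn and the other markers of fibro-adipogenic progenitors also fell in vehicle cultures relative to fresh cells (8 of 9 passed the test). Of the 9, 2 were lower with Tubastatin A than with vehicle, Col3a1 (log2 change −2.40, limma adjusted p = 4.5e-05) and the surface protein Cd34 (−2.84, adjusted p = 8.7e-09), and 2 were higher, Gsn (1.46, adjusted p = 4.8e-06) and Col1a1 (0.96, adjusted p = 0.021). Gas1 was highest in fresh library 1 and lowest in fresh library 2, as were 3286 of all 12803 genes. Over the fresh libraries 3 of the 9, Pdgfra, Col1a1 and Col3a1, ran in the order of Gas1, and the other 6, Dcn and Ly6a among them, ran in another order. Col3a1 stood at 605, 192 and 425 RPKM there, and Ly6a, which encodes Sca1, at 4.56, 16.2 and 9.16 RPKM. The part of such cells in the fresh level of Gas1 was not tested.

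Gas1 lies on chr13:60174405-60177365 (GRCm38, minus strand) in a single exon of 2961 bases. Of these, 589 bases (19.9%) overlap the antisense lincRNA Gm48488, which has no values in the table; use of strand in counting is not given in the sources used here, so reads of both cannot be told apart there. The promoter is shown because Gas1 had the lowest adjusted p of the members in each comparison, and it runs from 250 bases before to 50 bases after its RefSeq start (chr13:60177486-60177785, GRCm38.p6, minus strand, read 5′ to 3′), with its single GC box in capitals.
Gas1 promoter: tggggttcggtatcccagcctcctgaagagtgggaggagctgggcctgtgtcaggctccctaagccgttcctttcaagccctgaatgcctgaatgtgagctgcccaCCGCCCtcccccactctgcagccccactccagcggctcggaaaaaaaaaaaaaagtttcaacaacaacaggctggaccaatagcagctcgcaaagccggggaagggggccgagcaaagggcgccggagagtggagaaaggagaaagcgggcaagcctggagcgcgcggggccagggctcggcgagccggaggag
Its GC content was 62.3%, with 17 CG pairs, against medians of 52.7% and 7 over all 32851 promoters of the table. The GC box (GGGCGG, either strand), a motif for Sp factors found in 35.7% of all promoters, began 144 bases before the start. The Gli motif GACCACCCA (0.253% of promoters), the E-box CAGCTG (16.3%) and the RBPJ motif TGGGAA (25.6%) were not in this window, on either strand. The window lies upstream of the GENCODE gene bounds given above, and the sequence at that gene start was not searched.

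Boc, an immunoglobulin and fibronectin repeat co-receptor (chr16:44485049-44558897, minus strand), was below its fresh level in both cultures and higher with Tubastatin A than with vehicle. It stood at 9.50, 7.80, 7.07 and 7.93 RPKM in Tubastatin A libraries 1 to 4, 5.08, 5.55 and 5.79 RPKM in vehicle libraries, and 31.2, 18.02 and 28.4 RPKM in fresh libraries. All Tubastatin A libraries were above all vehicle libraries, and all fresh libraries were above both. Against fresh cells, Boc was 4.73-fold lower with vehicle (log2 change −2.02, SE 0.18, limma adjusted p = 1.2e-06) and 3.21-fold lower with Tubastatin A (−1.54, SE 0.17, adjusted p = 8.1e-06, or −0.89 with reads alone). Between Tubastatin A and vehicle the means were 8.07 ± 1.02 RPKM (SD, n = 4) and 5.47 ± 0.360 RPKM (SD, n = 3), a change of 0.48 (SE 0.17, limma adjusted p = 0.028). That call was lost without Tubastatin A library 1 (adjusted p = 0.078) or 4 (0.051), without vehicle library 1 (0.087), 2 (0.066) or 3 (0.051), and with a pseudocount of 5 (0.071).

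Cdon, the closest relative of Boc and like it a co-receptor (chr9:35421128-35507652, plus strand), went down in both steps. Its level was 2.11, 2.43, 2.39 and 2.54 RPKM with Tubastatin A, 6.07, 4.92 and 5.59 RPKM with vehicle, and 21.3, 8.54 and 11.2 RPKM in fresh cells, with no overlap between groups. The Tubastatin A mean (2.37 ± 0.181 RPKM, SD, n = 4) was 2.34-fold below the vehicle mean (5.53 ± 0.575 RPKM, SD, n = 3), with a log2 change of −0.95 (SE 0.23, limma adjusted p = 0.0034). Against fresh cells the change was −2.03 with Tubastatin A (SE 0.23, limma adjusted p = 9.2e-06), a 5.79-fold lower mean, and −1.08 with vehicle (SE 0.24, adjusted p = 0.0018). The vehicle change shrank to −0.54 and lost its call with reads alone (adjusted p = 0.064).

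Ratios of 2 members within a library do not depend on how the library is scaled. The ratio of Cdon to Boc was 0.222 to 0.338 with Tubastatin A, 0.888 to 1.19 with vehicle and 0.395 to 0.685 in fresh cells, so Boc was the more abundant of the pair per length in Tubastatin A and fresh cells, and both were near the same level with vehicle. The difference of the log2 ratio was −1.78 between Tubastatin A and vehicle, with no overlap (exact permutation test, two-sided, p = 0.0571, the smallest that 4 against 3 libraries allow, and 0.103 adjusted over 18 ratio tests). It was 0.999 between vehicle and fresh, also with no overlap (exact permutation test, p = 0.10, the smallest for 3 against 3, adjusted 0.12). The ratio of Gas1 to Cdon was 2.15 to 3.26 with Tubastatin A, 10.8 to 12.2 with vehicle and 43.6 to 46.5 in fresh cells. In the fresh group this ratio kept within a narrow range although the level of each gene varied more than 2-fold between libraries. The ratio of Gas1 to Boc was 0.724 to 0.846 with Tubastatin A, 10.5 to 13.8 with vehicle and 18.4 to 29.9 in fresh cells. Gas1 was thus the most abundant of the 3 co-receptors in vehicle and fresh cells, and Boc was the most abundant with Tubastatin A.

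Ptch1, the receptor that restrains Smo and is itself a Gli target (chr13:63508328-63573598, minus strand), was low in every group. It stood at 0.993, 1.01, 1.33 and 0.934 RPKM with Tubastatin A, 1.48, 1.03 and 1.14 RPKM with vehicle, and 1.11, 0.647 and 0.715 RPKM in fresh cells, and the groups overlapped in each comparison. The change between Tubastatin A and vehicle was −0.10 (SE 0.12, limma adjusted p = 0.49), between vehicle and fresh 0.28 (SE 0.12, adjusted p = 0.062) and between Tubastatin A and fresh 0.19 (SE 0.12, adjusted p = 0.18). The comparison of vehicle with fresh passed without fresh library 1 (0.39, limma adjusted p = 0.012), by voom on recovered reads (0.56, adjusted p = 0.045), with relative log expression scaling (0.33, adjusted p = 0.032) and with reads alone (0.56, adjusted p = 0.0021). The comparison of Tubastatin A with fresh passed without fresh library 1 (0.29, limma adjusted p = 0.037) and with reads alone (0.50, adjusted p = 0.0028).

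Smo, the seven-pass membrane protein that carries the signal into the cell (chr6:29735503-29761365, plus strand), was highest with vehicle. It stood at 21.01, 18.8, 19.1 and 18.01 RPKM with Tubastatin A, 31.9, 31.1 and 29.7 RPKM with vehicle, and 26.3, 11.98 and 21.6 RPKM in fresh cells. Every vehicle library was above every library of the other groups, while Tubastatin A libraries lay within the span of the fresh ones. The Tubastatin A mean of 19.3 ± 1.27 RPKM (SD, n = 4) was 1.61-fold below the vehicle mean of 30.9 ± 1.13 RPKM (SD, n = 3; log2 change −0.66, SE 0.20, limma adjusted p = 0.014), and the call held in each of the 19 alternative settings. Vehicle was above fresh (20.0 ± 7.30 RPKM) by 0.67 (SE 0.21, limma adjusted p = 0.015), by 0.36 without fresh library 2 (adjusted p = 0.012) and by 1.25 with reads alone, and the call was lost when only these 2 groups were fitted (adjusted p = 0.057). Between Tubastatin A and fresh the change was 0.02 (SE 0.20, limma adjusted p = 0.96). Here the scaling decided the outcome, with 0.67 for reads alone (limma adjusted p = 0.0094), and so did fresh library 2, without which the change was −0.30 (adjusted p = 0.025). The ratio of Smo to Ptch1 was 14.4 to 21.2 with Tubastatin A, 21.5 to 30.3 with vehicle and 18.5 to 30.3 in fresh cells. Its log2 difference between Tubastatin A and vehicle was −0.50 (no overlap, exact permutation test p = 0.0571, adjusted 0.103), and between vehicle and fresh 0.12 with overlap (exact permutation test p = 0.70).

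**Figure D2:**
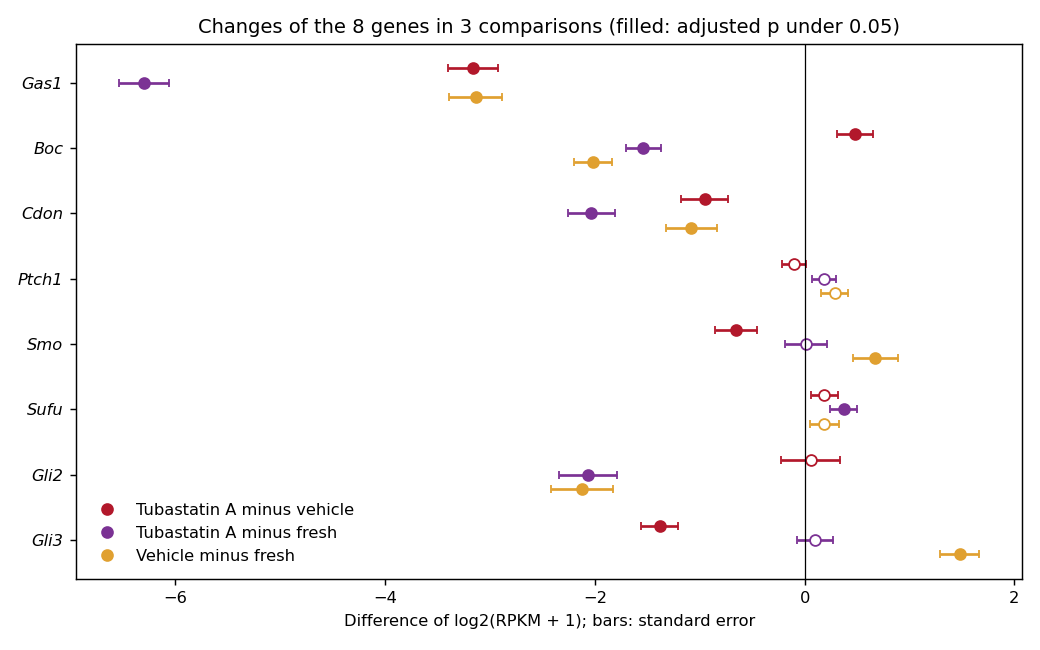
Fitted log2 changes of the 8 members with their standard errors in the 3 comparisons, with filled points for adjusted p under 0.05. Gas1 lies furthest from 0 in each comparison, and Gli3 moves up with vehicle relative to fresh and down with Tubastatin A relative to vehicle.

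Gli2, the main activator among the Gli factors (chr1:118834132-119053619, minus strand), was low in both cultures. Its level was 0.558, 0.648, 0.823 and 0.634 RPKM with Tubastatin A, 0.695, 0.479 and 0.633 RPKM with vehicle, and 11.7, 3.12 and 5.47 RPKM in fresh cells. The cultures overlapped each other, and every fresh library was above all of them. The means were 0.666 ± 0.112 RPKM with Tubastatin A (SD, n = 4), 0.602 ± 0.111 RPKM with vehicle and 6.77 ± 4.44 RPKM in fresh cells (SD, n = 3 each). Against fresh cells Gli2 was 10.2-fold lower with Tubastatin A (log2 change −2.07, SE 0.28, limma adjusted p = 4.1e-05) and 11.2-fold lower with vehicle (−2.12, SE 0.30, adjusted p = 5.0e-05), which is above the 9.57-fold of Gas1. Without fresh library 1 the folds were 6.45 for Tubastatin A and 7.13 for vehicle. On recovered reads (RPKM turned back into whole reads), where no RPKM pseudocount applies, voom gave −3.19 for Tubastatin A and −3.32 for vehicle. Between Tubastatin A and vehicle the change was 0.06 (SE 0.28, limma adjusted p = 0.88). Gli2 was highest in fresh library 1 and lowest in fresh library 2, as were 3286 of all 12803 genes. Among those were Pax7 (33.2, 15.3 and 18.8 RPKM) and Pdgfra, whose reads in fresh libraries 1 to 3 were 86, 2 and 39. Of the 9 markers of fibro-adipogenic progenitors, 6 ran in another order. Among those of muscle stem cells, Myf5, Vcam1, Des, Cxcr4, Sdc4 and Myod1 did so as well. The part of Pdgfra-positive cells in the Gli2 level was not tested.

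Gli3, the main repressor among the Gli factors (chr13:15463235-15730026, plus strand), had another profile. Its level was 0.737, 0.787, 1.27 and 0.629 RPKM with Tubastatin A, 5.36, 2.62 and 3.81 RPKM with vehicle, and 0.803, 0.720 and 0.641 RPKM in fresh cells. Every vehicle library was above every other library, and the Tubastatin A libraries spanned the fresh ones. The mean was 0.857 ± 0.286 RPKM with Tubastatin A (SD, n = 4), 3.93 ± 1.37 RPKM with vehicle and 0.722 ± 0.0812 RPKM in fresh cells (SD, n = 3 each). The Tubastatin A mean was 4.58-fold below the vehicle mean (log2 change −1.38, SE 0.17, limma adjusted p = 3.2e-05), and the vehicle mean was 5.44-fold above the fresh mean (1.48, SE 0.19, adjusted p = 2.1e-05). By voom the change was −2.21 for Tubastatin A against vehicle and 2.38 for vehicle against fresh. Between Tubastatin A and fresh the change was 0.10 (SE 0.17, limma adjusted p = 0.64). Of the exon length of Gli3, 188 bases (1.96%) overlap the antisense transcript Gm6556.

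The ratio of Gli3 to Gli2 lay on opposite sides of 1 in vehicle and fresh cells. It was 0.992 to 1.55 with Tubastatin A, 5.47 to 7.71 with vehicle and 0.0686 to 0.231 in fresh cells, so Gli2 was the more abundant per length in fresh cells, Gli3 with vehicle, and both were near the same level with Tubastatin A. No group overlapped another. The log2 ratio averaged 0.33 ± 0.27 with Tubastatin A (SD, n = 4), 2.66 ± 0.26 with vehicle and −3.02 ± 0.88 in fresh cells (SD, n = 3 each). The differences were −2.34 (Tubastatin A against vehicle, exact permutation test p = 0.0571, adjusted 0.103), 5.69 (vehicle against fresh, exact permutation test p = 0.10, adjusted 0.12) and 3.35 (Tubastatin A against fresh, exact permutation test p = 0.0571, adjusted 0.103). RNA levels do not show how much of the Gli3 protein was processed into the repressor. The promoters of both genes, shown because their transcripts moved oppositely between vehicle and fresh cells, span chr1:119053570-119053869 (minus strand) for Gli2 and chr13:15463473-15463772 (plus strand) for Gli3, from RefSeq in GRCm38.p6 and with GC boxes in capitals.
Gli2 promoter: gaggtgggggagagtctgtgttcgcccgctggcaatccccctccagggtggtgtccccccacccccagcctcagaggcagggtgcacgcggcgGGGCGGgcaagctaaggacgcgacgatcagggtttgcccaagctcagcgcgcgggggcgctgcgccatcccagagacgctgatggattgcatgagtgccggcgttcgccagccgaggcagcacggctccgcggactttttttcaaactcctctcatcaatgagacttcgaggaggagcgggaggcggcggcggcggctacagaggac
Gli3 promoter: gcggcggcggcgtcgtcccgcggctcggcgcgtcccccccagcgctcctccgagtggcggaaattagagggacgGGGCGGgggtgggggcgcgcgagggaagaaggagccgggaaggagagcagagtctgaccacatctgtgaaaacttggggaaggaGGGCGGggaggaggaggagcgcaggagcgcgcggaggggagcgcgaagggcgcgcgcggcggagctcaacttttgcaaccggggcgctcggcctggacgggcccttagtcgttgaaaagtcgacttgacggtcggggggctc
Both held more GC than the median promoter (67.3% for Gli2 and 71% for Gli3) and more CG pairs (28 and 39). The GC boxes began 157 bases before the start in Gli2, and 176 and 92 bases before it in Gli3. Neither window held the Gli, E-box or RBPJ motif as spelled above. RefSeq promoters were available for 7 of the 8 members, Boc being the exception, and none of the 7 held the Gli motif. Only the window of Cdon held the RBPJ motif. The windows of Cdon (chr9:35451826-35452125) and Ptch1 (chr13:63565686-63565985) lie inside the GENCODE gene bounds given above, as does that of Gli3. The window of Gas1 lies outside its GENCODE gene bounds, upstream of the gene. These windows do not cover the GENCODE gene starts, and the sequence at those starts was not searched.

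Sufu, which binds Gli proteins and holds them inactive (chr19:46396896-46488804, plus strand), differed less between groups. It stood at 8.95, 8.27, 8.17 and 7.34 RPKM with Tubastatin A, 7.52, 6.91 and 6.77 RPKM with vehicle, and 7.36, 4.89 and 6.19 RPKM in fresh cells, with overlap between all groups. Between Tubastatin A and vehicle the change was 0.19 (SE 0.13, limma adjusted p = 0.24), and between vehicle and fresh it was 0.19 (SE 0.14, adjusted p = 0.25, or 0.70 with adjusted p = 6.4e-04 for reads alone). Tubastatin A was above fresh by 0.37 (SE 0.13, limma adjusted p = 0.024), although fresh library 1 exceeded Tubastatin A library 4. This call was lost without Tubastatin A library 1 (adjusted p = 0.067) or 2 (0.054) and without fresh library 2 (0.24, adjusted p = 0.076), and the change was 0.96 with reads alone. The ratio of Sufu to Gli3 was 6.42 to 12.1 with Tubastatin A, 1.40 to 2.64 with vehicle and 6.79 to 9.65 in fresh cells. It was lower with vehicle than in both other groups without overlap, whereas Tubastatin A and fresh overlapped (log2 difference 0.23, exact permutation test p = 0.40).

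**Figure D3:**
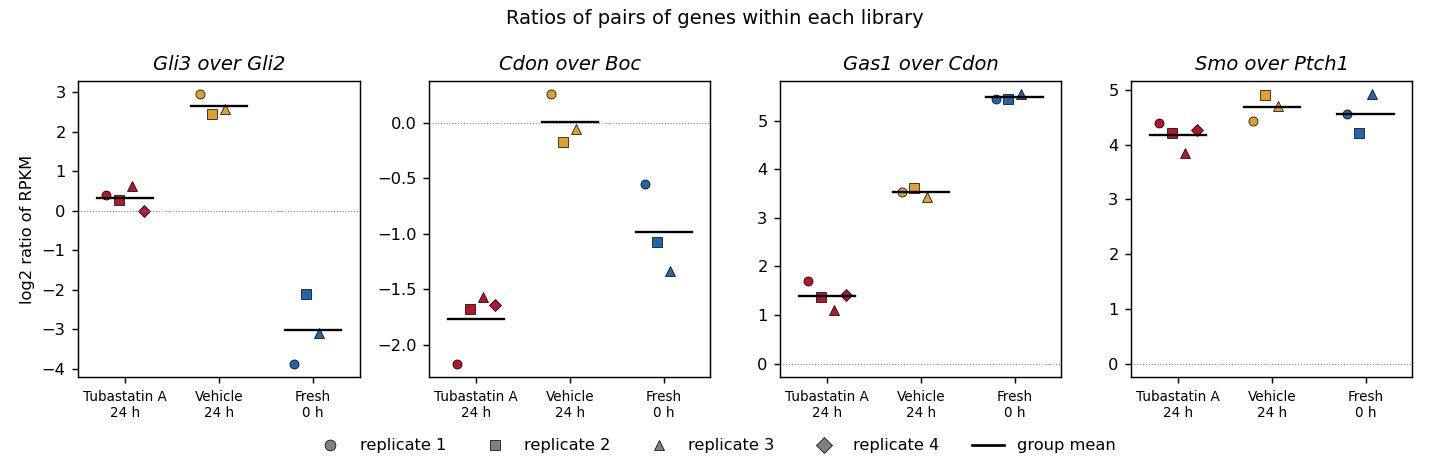
Ratios of member pairs within each library, as log2 ratios, with Tubastatin A libraries left of vehicle and fresh ones; each point is a library and lines are group means. The ratio of Gli3 to Gli2 falls into 3 separate levels, and that of Smo to Ptch1 overlaps between vehicle and fresh.

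By mean RPKM, the order with Tubastatin A was Smo, Sufu, Boc, Gas1, Cdon, Ptch1, Gli3 and Gli2. With vehicle it was Gas1, Smo, Sufu, Cdon, Boc, Gli3, Ptch1 and Gli2, and in fresh cells Gas1, Boc, Smo, Cdon, Gli2, Sufu, Ptch1 and Gli3. Neighbours whose ranges overlapped included Sufu and Boc with Tubastatin A (7.34 to 8.95 and 7.07 to 9.50 RPKM), Cdon and Boc with vehicle (4.92 to 6.07 and 5.08 to 5.79 RPKM), and Ptch1 and Gli3 in fresh cells (0.647 to 1.11 and 0.641 to 0.803 RPKM). Gas1 was the only member to move from the top of the order in fresh and vehicle cells to the middle with Tubastatin A.

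Further genes of the pathway were taken from 8 lists by role. Of 10 genes for ligands and their release, 3 had values. Hhat, which attaches palmitate to the ligand, and Disp1, which releases it, did not pass the test between Tubastatin A and vehicle. Adam17, a sheddase, was at 23.0, 19.7, 14.8 and 19.4 RPKM with Tubastatin A and at 14.6, 11.5 and 10.5 RPKM with vehicle (log2 change 0.61, limma adjusted p = 0.010, or 0.051 without vehicle library 3). The ligand genes Shh, Ihh and Dhh were not analysed here. Among 4 further ligand-binding genes, the glypican Gpc3, which competes with Ptch1 for ligand, was at 2.03 to 2.25 RPKM with Tubastatin A, 0.248 to 0.460 RPKM with vehicle and 3.17 to 3.58 RPKM in fresh cells. It was higher with Tubastatin A than with vehicle (1.20, limma adjusted p = 8.9e-07) and lower with vehicle than in fresh cells (−1.67, adjusted p = 5.5e-08). Gpc4, another glypican, had the opposite direction against vehicle, at 25.9 to 35.5 RPKM with Tubastatin A and 61.1 to 65.5 RPKM with vehicle (−1.03, limma adjusted p = 1.5e-04). Of these 4 genes 1 was higher and 2 lower with Tubastatin A than with vehicle, and 3 were lower with vehicle than in fresh cells. With reads alone the first counts became 2 higher and 2 lower, and the second 1 higher and 1 lower.

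Of 11 target genes measured besides Ptch1, 6 were higher and 3 lower with Tubastatin A than with vehicle, with a median change of 0.37. Between vehicle and fresh cells 1 was higher and 8 lower (2 and 7 with reads alone), with a median of −0.75 (−0.51 with reads alone). Over all genes 29.6% were higher and 29.7% lower between the cultures, and 32% higher and 35% lower between vehicle and fresh, which are the shares to set beside these counts and those of the lists that follow. Gli1, the target most used as a readout of the pathway, was low throughout, at 0.305, 0.334, 0.301 and 0.166 RPKM with Tubastatin A, 0.171, 0.238 and 0.188 RPKM with vehicle, and 2.09, 0.319 and 0.928 RPKM in fresh cells. It did not pass the test between Tubastatin A and vehicle (0.09, limma adjusted p = 0.74) and was lower with vehicle than in fresh cells (−0.73, adjusted p = 0.012). Without fresh library 1 the change against fresh was −0.41 for vehicle and −0.32 for Tubastatin A, against −0.64 (limma adjusted p = 0.017) for Tubastatin A with all libraries, a call lost with reads alone (adjusted p = 0.069).

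The targets with the lowest adjusted p between the cultures are also regulated by other pathways. Ccnd1, cyclin D1, was at 1.83, 1.70, 2.42 and 2.17 RPKM with Tubastatin A, 47.2, 36.3 and 53.9 RPKM with vehicle, and 15.4, 8.56 and 8.90 RPKM in fresh cells. It was lower with Tubastatin A than with vehicle (−3.94, limma adjusted p = 2.0e-08) and higher with vehicle than in fresh cells (2.0, adjusted p = 4.6e-06). Ccnd2, cyclin D2, changed the other way between the cultures, at 2.98, 2.77, 3.34 and 2.53 RPKM with Tubastatin A and 0.124, 0.248 and 0.180 RPKM with vehicle (1.72, limma adjusted p = 3.7e-07). Hsd11b1, which reactivates glucocorticoid, was at 8.20 to 11.3 RPKM with Tubastatin A, 1.66 to 2.22 RPKM with vehicle and 49.98 to 109.5 RPKM in fresh cells. Mycn was lower with Tubastatin A than with vehicle (−1.28, limma adjusted p = 9.3e-06) and lower with vehicle than in fresh cells (−0.95, adjusted p = 1.2e-04). Thus Gli1 and Ptch1 did not pass the test between the cultures. Ccnd1 and Mycn were among the 3 targets lower with Tubastatin A, and Ccnd2 and Hsd11b1 among the 6 higher.

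**Figure D4:**
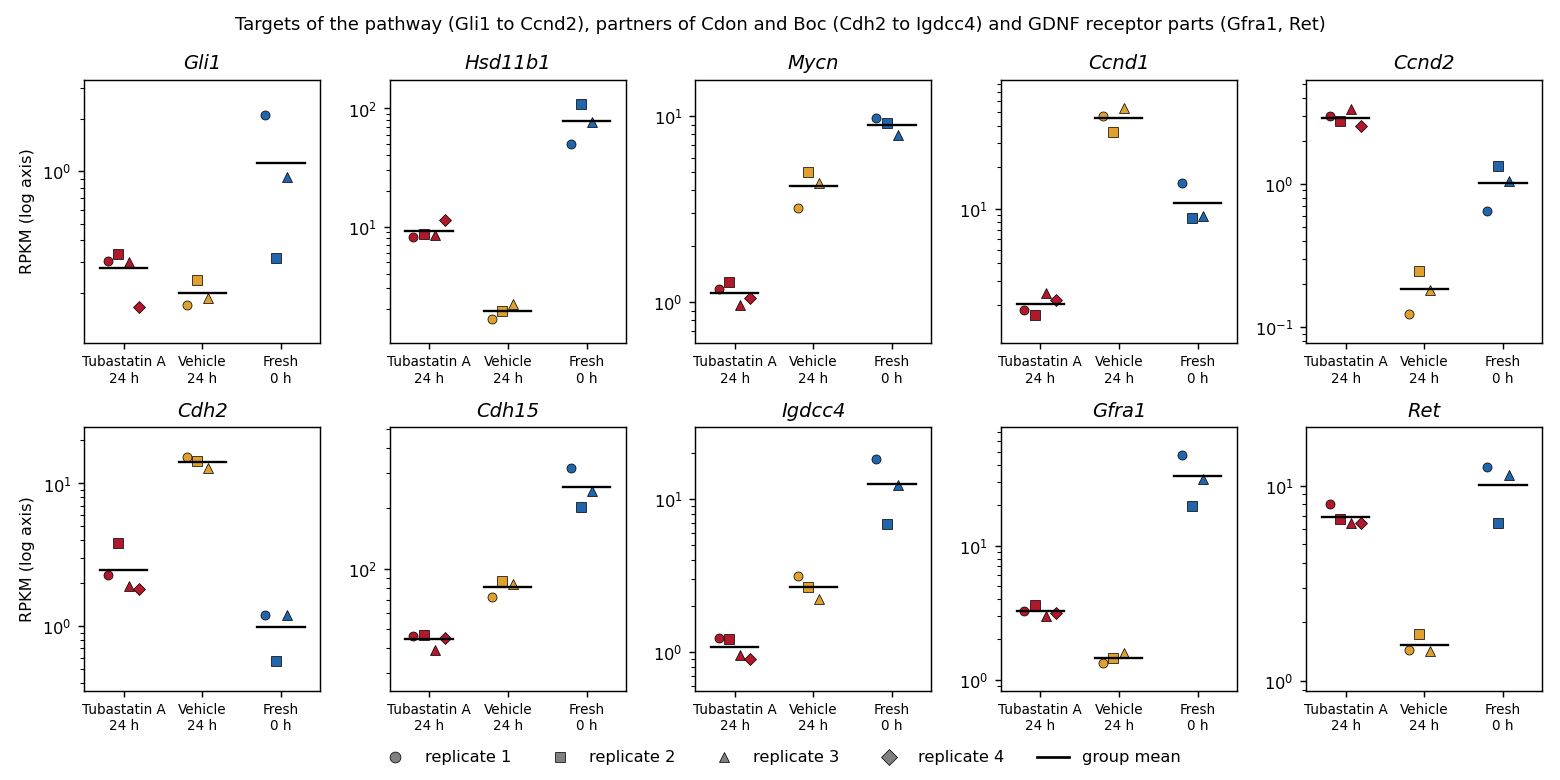
RPKM of 10 further genes in each library, on log axes, with Tubastatin A libraries left of vehicle and fresh ones: targets, partners of Cdon and Boc, and GDNF receptor parts. Ccnd1 and Cdh2 are highest with vehicle, Ccnd2 is highest with Tubastatin A, and Gli1 is highest in fresh library 1.

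Of 16 genes that control Smo or its level, 4 were higher and 3 lower with Tubastatin A than with vehicle, and 9 did not pass. The β-arrestin Arrb2, which takes part in moving Smo to the cilium, was at 13.6 to 16.6 RPKM with Tubastatin A, 20.2 to 21.5 RPKM with vehicle and 7.17 to 8.33 RPKM in fresh cells, a change of −0.47 between the cultures (limma adjusted p = 0.0019). Its relative Arrb1 was higher with Tubastatin A, at 0.814 to 0.955 RPKM against 0.270 to 0.423 RPKM with vehicle (0.49, limma adjusted p = 0.0041). Mgrn1, a ubiquitin ligase that lowers Smo, was at 24.5 to 29.1 RPKM with Tubastatin A and 17.4 to 19.9 RPKM with vehicle (0.51, limma adjusted p = 0.0041). Ulk3, a kinase of Gli proteins, was at 3.44 to 5.58 RPKM with Tubastatin A and 7.25 to 10.2 RPKM with vehicle (−0.73, limma adjusted p = 0.014, or 0.067 without vehicle library 3). Between vehicle and fresh cells 4 were higher and 4 lower, which became 11 and 3 with reads alone.

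The protein kinase A arm and the machinery of Gli processing gave 24 measured genes, of which 7 were higher and 6 lower with Tubastatin A than with vehicle. The regulatory subunits of protein kinase A split. Prkar2a was at 10.9 to 14.2 RPKM with Tubastatin A, 30.8 to 34.8 RPKM with vehicle and 6.00 to 9.20 RPKM in fresh cells (−1.27 between the cultures, limma adjusted p = 1.0e-05). Prkar2b was also lower with Tubastatin A than with vehicle (−1.45, limma adjusted p = 2.8e-06), at 4.35 to 5.23 RPKM against 13.0 to 15.8 RPKM. Prkar1b was higher, at 2.86 to 3.47 RPKM with Tubastatin A against 0.165 to 0.290 RPKM with vehicle (1.72, limma adjusted p = 3.6e-08). The catalytic subunit Prkaca was lower with Tubastatin A (−0.50, limma adjusted p = 0.0097), at 51.6 to 56.5 RPKM against 72.2 to 83.2 RPKM with vehicle. Fbxw11, a substrate receptor of the ligase that starts Gli processing, was at 49.1 to 64.4 RPKM with Tubastatin A and 30.5 to 41.8 RPKM with vehicle (0.68, limma adjusted p = 0.0030). Gpr161, the ciliary receptor that keeps protein kinase A active, did not pass between the cultures (−0.21, limma adjusted p = 0.14). Tulp3, which brings it into the cilium, was at 2.39 to 3.14 RPKM with Tubastatin A and 1.03 to 1.39 RPKM with vehicle (0.76, limma adjusted p = 1.1e-04). Numb, an adaptor known to direct Gli1 to the ligase Itch, was below its fresh level in both cultures, at 11.6 to 13.0 RPKM with Tubastatin A, 6.78 to 8.12 RPKM with vehicle and 28.6 to 42.2 RPKM in fresh cells (log2 change −1.48 for Tubastatin A, limma adjusted p = 1.5e-06, and −2.11 for vehicle, adjusted p = 1.1e-07). Between vehicle and fresh cells 6 of the 24 were higher and 9 lower, which became 10 and 4 with reads alone.

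Of 49 measured genes of ciliary entry and transport, 12 were higher and 13 lower with Tubastatin A than with vehicle, and 24 did not pass, with a median change of −0.03. Between vehicle and fresh cells 13 were higher and 14 lower (26 and 8 with reads alone), with a median of −0.03 (0.43 with reads alone). Arl13b, a ciliary GTPase needed for Smo movement, was at 4.14 to 4.48 RPKM with Tubastatin A, 3.38 to 3.86 RPKM with vehicle and 41.7 to 77.2 RPKM in fresh cells. It was lower with vehicle than in fresh cells (−3.63, limma adjusted p = 8.0e-09) and did not pass between the cultures (0.18, adjusted p = 0.37). Cc2d2a, a part of the ciliary gate, was at 0.163 to 0.309 RPKM with Tubastatin A, 0.924 to 1.56 RPKM with vehicle and 2.43 to 5.75 RPKM in fresh cells, a descent in the same order as Cdon. The BBSome gene Bbs4 was higher with Tubastatin A than with vehicle (1.29, limma adjusted p = 1.9e-06), at 4.79 to 5.42 RPKM against 1.34 to 1.63 RPKM. Kif3a, a motor subunit of transport into the cilium, was at 20.0 to 21.3 RPKM with Tubastatin A and 9.84 to 11.4 RPKM with vehicle (0.87, limma adjusted p = 1.2e-05). Tmem216 of the ciliary gate was lower (−1.12, limma adjusted p = 4.8e-05), at 2.34 to 2.96 RPKM with Tubastatin A against 6.51 to 8.11 RPKM with vehicle.

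Of 15 measured partners of Cdon and Boc in muscle cells, 3 were higher and 7 lower with Tubastatin A than with vehicle, with a median change of −0.53. Between vehicle and fresh cells 4 were higher and 3 lower (10 and 2 with reads alone, and 5 and 6 without fresh library 2). The cadherins had different patterns. Cdh2, N-cadherin, was at 2.28, 3.80, 1.91 and 1.83 RPKM with Tubastatin A, 15.4, 14.3 and 12.9 RPKM with vehicle, and 1.20, 0.567 and 1.21 RPKM in fresh cells. It was lower with Tubastatin A than with vehicle (−2.17, limma adjusted p = 2.0e-06) and higher with vehicle than in fresh cells (2.95, adjusted p = 1.5e-07). Cdh15, M-cadherin, was at 39.4 to 46.7 RPKM with Tubastatin A, 71.8 to 87.2 RPKM with vehicle and 203 to 317 RPKM in fresh cells, lower in each step (−0.85, limma adjusted p = 4.3e-04, between the cultures, and −1.62, adjusted p = 2.9e-06, between vehicle and fresh). Neo1, neogenin, a netrin receptor that works with Cdon, was at 10.2 to 12.6 RPKM with Tubastatin A and 5.69 to 7.46 RPKM with vehicle (0.73, limma adjusted p = 0.0014). The scaffold Spag9, which carries the stress kinase signal of Cdon, was higher as well (0.88, limma adjusted p = 2.8e-04), at 7.53 to 10.3 RPKM with Tubastatin A against 4.08 to 5.15 RPKM with vehicle. Tcf3, an E-protein partner of Myod1, was lower (−0.75, limma adjusted p = 0.0013), at 46.9 to 50.7 RPKM against 82.7 to 84.9 RPKM with vehicle. Igdcc4, of the same immunoglobulin family, was at 0.898 to 1.24 RPKM with Tubastatin A, 2.22 to 3.14 RPKM with vehicle and 6.87 to 18.4 RPKM in fresh cells.

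Gas1 is structurally related to the GDNF family receptors and can act on their partner, the kinase Ret. All 4 measured genes of this group changed between the cultures, 2 in each direction, and also between vehicle and fresh cells, 2 in each direction, where 59.3% and 67% of all genes changed. With a pseudocount of 5, 1 was higher between the cultures. Ret was at 8.09, 6.73, 6.42 and 6.44 RPKM with Tubastatin A, 1.43, 1.73 and 1.43 RPKM with vehicle, and 12.4, 6.39 and 11.3 RPKM in fresh cells, higher with Tubastatin A than with vehicle (1.64, limma adjusted p = 1.3e-05). Gfra1, a co-receptor of Ret, was at 3.24, 3.62, 2.99 and 3.16 RPKM with Tubastatin A, 1.33, 1.44 and 1.59 RPKM with vehicle, and 47.5, 19.8 and 31.5 RPKM in fresh cells (0.79 between the cultures, limma adjusted p = 0.0083, or 0.13 with a pseudocount of 5, and −3.70 between vehicle and fresh, adjusted p = 6.6e-08). Gfra2 was highest with vehicle, at 0.838 to 1.26 RPKM with Tubastatin A, 10.4 to 14.0 RPKM with vehicle and 1.73 to 2.44 RPKM in fresh cells (−2.58 between the cultures, limma adjusted p = 3.5e-08). Gas1 fell in both steps, whereas Gfra1 and Ret were lowest with vehicle and Gfra2 and Gfra4 were highest with vehicle.

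The genes whose pattern over the 10 libraries was most like that of each member were ranked by the root mean square difference of centred log2(RPKM + 1), among 9890 genes. For Gas1 they were Col3a1 (difference 0.42), Vcam1 (0.59) and Myf5 (0.59), against a spread of 2.64 for Gas1 itself. Col3a1, a fibrillar collagen and 1 of the 9 markers of fibro-adipogenic progenitors counted above, averaged 6.50 RPKM with Tubastatin A, 38.0 RPKM with vehicle and 407.4 RPKM in fresh cells. Vcam1, the surface marker of the sort, averaged 4.36 RPKM with Tubastatin A, 34.0 RPKM with vehicle and 180.2 RPKM in fresh cells. Myf5, a lineage factor of muscle stem cells, averaged 6.37 RPKM with Tubastatin A, 34.1 RPKM with vehicle and 248.4 RPKM in fresh cells. Gli2 was most like Mrc2, Npas2 and Pfkfb3, and Gli3 most like Ccdc9b, Senp1 and Nr2f2. The nearest to Boc were Hs3st3b1, Snrk and Numb, and the nearest to Cdon Cc2d2a, Tln2 and Irf2bpl. For Smo they were Urb2, Tango6 and Topors, for Sufu Zfp148, Usp4 and Zkscan5, and for Ptch1 they included Parg and Vti1a. Ptch1 and Sufu varied little themselves (spread 0.17 and 0.20), so their likeness rests on small differences.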

How the data were processed

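The deposited table gives RPKM, computed by the authors, for 12803 genes in 10 libraries. Per the labels' protocols, cDNA was made from 5 ng of RNA with SMART-Seq v4, and reads were paired, of 150 bp. Tools named in the submitters' processing notes are Trim Galore, STAR, Subread with featureCounts, and edgeR, used by the authors with the mm10 build; versions and settings are not given in the sources used here. Members and gene lists were chosen with earlier results of these data known. Genes were named by rule: the 8 members, list genes with the lowest adjusted p first, and the 3 genes most like each member. Gsn, Pdgfra, Dcn, Ly6a, Col1a1, Cd34, Acta2, Scx, Pdgfrb, Mkx, Myh11 and Myod1 are markers or list genes, chosen after their values were seen. So were the other markers of muscle stem cells and the immune markers Cd68, Lyz2 and Cd74. Some genes are not reported here.

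RPKM times GENCODE M21 union exon length (12680 symbols matched, 99.0%) and 1 factor per library gave whole numbers of reads (tolerance 0.05 reads, in all libraries) for 11647 genes (91.9% of those matched), all members included. A read in a gene of 1 kb equals 0.0160 to 0.0339 RPKM. No value was exactly 0. The test was limma 3.58.1 (R 4.3.3) on log2(RPKM + 1), with a variance trend, 1 model for the 3 groups and Benjamini-Hochberg adjustment over all genes; no gene was left out. It was run on simulated data with independent normal noise and few changed genes. That setting cannot show how the test performs where most genes are called, as here. Ratios of member pairs were compared with exact two-sided permutation tests, 18 adjusted together. Coordinates are those of GENCODE M21 (GRCm38). As alternatives, voom was run on recovered reads (12353 genes averaging 10 reads or more), and the fit was repeated with 3 scalings (upper quartile, relative log expression, and reads in the table as library size), pseudocounts of 0.1 and 5, a minimum mean of 1 RPKM, the compared groups only, a block for replicate number, and each library left out. Versions were Python 3.11.15, numpy 2.4.6, scipy 1.17.1, pandas 2.3.3 and matplotlib 3.10.9.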

Additional observations from a re-analysis of the deposited data

How the results depend on the processing

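Counts of changed genes and members stayed within 1.5 times of the reported count under each of the 19 settings (114 of 114 counts). With each library left out in turn, 6588 to 8341 genes and 4 to 5 members changed between Tubastatin A and vehicle, 7868 to 8912 genes and 6 to 7 members between vehicle and fresh, and 7768 to 8540 genes and 4 to 6 members between Tubastatin A and fresh. Of the recomputed member changes, 433 kept their direction and side of the threshold, 11 lost their call, 8 gained it and 4 turned their sign. Part of this was fixed in advance. Leaving out a library of the group not compared, fitting the compared groups only, or the minimum of 1 RPKM cannot move the change itself. Those settings can move only its adjusted p. The turned values were Gli2 between Tubastatin A and vehicle without vehicle replicate 2 (−0.00072; 0.098 without vehicle replicate 1), Smo between Tubastatin A and fresh without Tubastatin A replicate 1 (−0.026) and without fresh replicate 2 (−0.30; 0.24 without fresh replicate 1), and Gli3 between Tubastatin A and fresh without Tubastatin A replicate 3 (−0.0033; 0.16 without Tubastatin A replicate 4). The log2 ratio of Smo over Ptch1 between vehicle and fresh was −0.058 without fresh replicate 2 and 0.30 without fresh replicate 3. Of these, only the value of Smo without fresh replicate 2 passed the threshold. The cause was not tested. The labels do not say whether replicate numbers pair the libraries. Over 7833 genes, 5 of 9 same-numbered pairs had a correlation of deviations over 0.1 (range −0.23 to 0.48). Differently numbered pairs ranged from −0.57 to 0.52, and 5 of 9 libraries correlated best with their own number. These correlations cannot decide on pairing, because deviations from the mean of 3 or 4 libraries are tied to each other. With the replicate block, 7136 genes and 5 members changed between Tubastatin A and vehicle, 8503 and 6 between vehicle and fresh, and 7888 and 5 between Tubastatin A and fresh. Depth limits Gli2 most, with as few as 141 reads.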
